A study of Mus musculus with 4 samples.

Results

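The nerves of the embryonic mouse limb were followed here through 9 genes, 4 of the Schwann cell lineage (Sox10, Erbb3, Ngfr and Fabp7) and 5 of the growing axon (Gap43, Dcx, Stmn2, Tubb3 and Prph). The genes were chosen by name, with earlier results of these data known, and the tags assigned to each one's Ensembl gene were summed. They are 9 of 26252 features in the tag table and held 2599 of its 14091065 assigned counts, 1220 in the Schwann cell genes and 1379 in the axon genes. All 9 had a count, and 8 passed the filter on low counts; Prph did not.

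The study compared hindlimbs with forelimbs of CD1 mouse embryos at E14.5, with 2 biological replicates of each limb type and no treatment or allele named for either. Total RNA from dissected limbs was profiled with DGE-SAGE, in which cDNA is cut by NlaIII at CATG and the bases next to a cut site are counted as a tag of 17 bases. It is not stated in the labels if limbs of several embryos were pooled, nor if equal replicate numbers share animals. The p-values therefore rest on the spread between these 4 libraries only. That spread was estimated for each gene partly from the other genes.

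Limb nerves are made of axons of motor and sensory neurons and of the Schwann cells that travel with them. The cell bodies of those neurons lie outside the limb, in the spinal cord and the dorsal root ganglia, and axons carry some transcripts of their own. Schwann cell precursors arise from the neural crest, enter the limb along the axons, and depend on signals from them, of which neuregulin acting on ErbB3 with ErbB2 is the best known. Whole limbs also hold cartilage, muscle, skin and vessels. In such bulk samples fewer nerve cells and less RNA per nerve cell cannot be told apart.

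Library totals were 5325279 and 5015295 tags in the hindlimb libraries and 4695786 and 1829647 in the forelimb libraries. In CPM (counts scaled by library size with edgeR's TMM method), 1 count was worth 0.222 and 0.252 in hindlimb, against 0.255 and 0.618 in forelimb, so the last library resolves low genes least. All 8 limb tissue markers were detected, and their summed level was 4959 and 6032 CPM in hindlimb, against 6652 and 5555 CPM in forelimb. By edgeR's quasi-likelihood test with Benjamini-Hochberg adjustment at 0.05, 16.7% of the 13718 features tested differed between limb types, 9.58% higher in hindlimb and 7.08% higher in forelimb. Fold changes are hindlimb over forelimb on the log2 scale. Tags with more cytosines ran toward hindlimb throughout the table: the median log2 fold change of a tag was -0.72 with 0 to 2 cytosines, -0.16 with 3 to 4, and 0.86 with 5 or more. A second fit therefore carried an offset for the sequence of each tag, estimated from tags of the same gene, and called 0.372% of features (51), 0.292% higher in hindlimb and 0.0802% higher in forelimb.

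The tags are shown because each member was measured through a few of them, and because tag counts moved with base content throughout the table. They are the tags holding at least 10% of a gene's counts, at most 3 a gene and in order of abundance, read 5′ to 3′ after CATG, with cytosines in capitals. These 19 tags carried 78.5% of the members' counts, out of 82 tags with a count.
Sox10, tag 1: ttCCtatCCCtCtagCt
Sox10, tag 2: taCagtCtaCCtttgCC
Sox10, tag 3: taaCaCatCgCtgCCCC
Erbb3, tag 1: tgtgagCttCCagaCtC
Erbb3, tag 2: CaCtgtgagCCaggCat
Erbb3, tag 3: tttCagatgaCagttga
Ngfr, tag 1: tgtttggttCtgggggt
Ngfr, tag 2: ttCCCtgaCaCttCCCC
Fabp7, tag 1: ggattttgatatgCaaa
Gap43, tag 1: CtgtgCtgtatgagaag
Gap43, tag 2: CCtgaaCtttaagaaat
Dcx, tag 1: tgtgtgaggtgttgtga
Stmn2, tag 1: gtttaaaaagaaCtCat
Stmn2, tag 2: CgatatCagtatgggaa
Stmn2, tag 3: ggtgatgatgttCattt
Tubb3, tag 1: aatgaCCtggtgtCCga
Tubb3, tag 2: tCtatgaaggaggtgga
Tubb3, tag 3: gatgagatggagttCaC
Prph, only tag: gtCtgtggggtgggCCa
The main tags of Fabp7, Dcx and Stmn2 are poor in cytosine, whereas the second Ngfr tag and the first Sox10 tag are rich in it.

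Dcx and Stmn2, both genes of the growing axon, were lower in hindlimb than in forelimb, and no Schwann cell gene was called. Of the 4 axon genes tested, 2 (Dcx and Stmn2) were lower in hindlimb, where 7.08% of all features were higher in forelimb, and 3 had an unadjusted p below 0.05. None of the 4 Schwann cell genes was called by edgeR in either direction, 1 of them had an unadjusted p below 0.05, and DESeq2 also called 0 of the 4. Over all 13718 features tested, 4449 had an unadjusted p below 0.05, and edgeR called 16.7%. The median log2 fold change was -1.35 over the axon genes tested and -0.066 over the Schwann cell genes, beside -0.029 over all features tested. Whether the sets differ from each other was not tested. With the tag-sequence offset edgeR called 0 of the 8 genes, 2 with an unadjusted p below 0.05, where it called 0.372% of all features. The medians were -0.74 for axon genes and -0.087 for Schwann cell genes. The median of all features is 0.098 with the offset, so its values are read beside that shift.

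**Figure D1:**
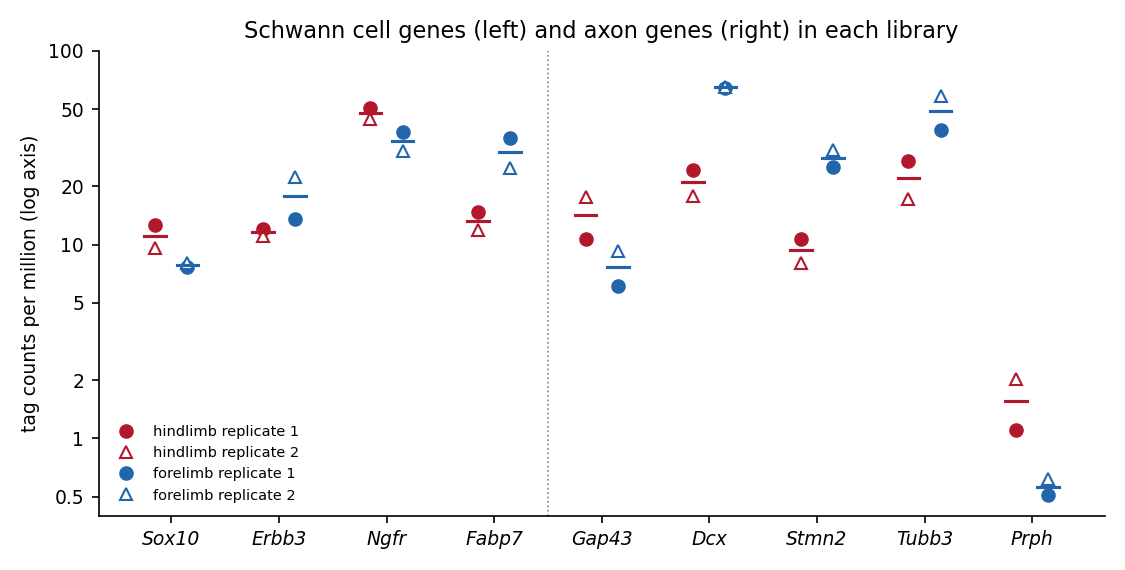
Level of each of the 9 members in each library, in TMM-scaled CPM on a log axis, hindlimb left of forelimb, 1 point per library. The points of all 9 genes, Dcx and Stmn2 among them, stand apart by limb type, as do those of 62.8% of all features tested.

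Dcx encodes doublecortin, a microtubule-associated protein of young and migrating neurons and of growing axons, also known from muscle progenitor cells of the mouse. The gene lies on chrX:143855842-143933311, minus strand (GENCODE M21, GRCm38). Its level was 24.2 and 17.9 CPM in hindlimb (109 and 71 counts), against 64.4 and 64.9 CPM in forelimb (253 and 105 counts). Both forelimb libraries lay far above both hindlimb libraries. The forelimb pair was nearly equal in the gene's sum but not in its most abundant tag, at 31.7 and 43.4 CPM. The means of the gene were 21.1 ± 4.48 CPM in hindlimb and 64.7 ± 0.317 CPM in forelimb (SD, n = 2 each). Dcx was 3.06-fold lower in hindlimb, with a log2 fold change of -1.61 ± 0.37 (SE; 95% interval -2.39 to -0.84, edgeR adjusted p = 0.00739). With the tag-sequence offset the log2 fold change was -0.77 (interval -1.38 to -0.16) and the adjusted p 0.348.

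The tags of Dcx can be read separately. The first, next to the last CATG of the transcript in the 3′ UTR (chrX:143856009-143856025), held 55.8% of the gene's counts, with 73 and 33 counts in hindlimb, against 123 and 71 in forelimb. Its log2 fold change was -1.60, and its adjusted p over all tags was 0.0862. All 5 Dcx tags that were tested had a fold change below 0, the 4 with counts in both limb types between -2.85 and -1.15. Of these 4, the tag at -2.85 lay on the antisense strand, with 4 and 0 counts in hindlimb, against 11 and 7 in forelimb. The sense tags among them ran from -1.91 to -1.15. The remaining tested tag, in the 3′ UTR, had no count in hindlimb and 16 and 4 in forelimb. That tag was at least 10.3-fold lower in hindlimb against a floor of 3 counts over the group. Tags on the antisense strand of Dcx made up 16.5% of its counts, with 16 and 9 in hindlimb, against 55 and 9 in forelimb.

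Stmn2 encodes stathmin-2 (SCG10), which destabilises microtubules in growth cones (chr3:8509360-8561606, plus strand). It measured 10.7 and 8.07 CPM in hindlimb (48 and 32 counts), against 25.2 and 30.9 CPM in forelimb (99 and 50 counts). The limb types were separate, with means of 9.37 ± 1.84 CPM in hindlimb and 28.1 ± 4.02 CPM in forelimb (SD, n = 2 each). Stmn2 was 2.96-fold lower in hindlimb (log2 -1.57 ± 0.44, SE; interval -2.50 to -0.64, edgeR adjusted p = 0.0227). It was no longer called with hindlimb replicate 2 left out (adjusted p = 0.106), nor without forelimb replicate 1 (0.0522) or forelimb replicate 2 (0.0989). The tag-sequence offset gave Stmn2 -0.71 with an adjusted p of 0.585, and an offset for GC content -1.002 (0.137). Its first tag had 27 and 6 counts in hindlimb, against 30 and 14 in forelimb, its second 6 and 12 in hindlimb, against 43 and 12 in forelimb, and the third 7 and 8 in hindlimb, against 24 and 16 in forelimb. All 3, each in the 3′ UTR, ran below 0, at -1.09, -2.10 and -2.13, and none of them was called alone.

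Tubb3 encodes the neuronal class III beta-tubulin of axonal microtubules (chr8:123411424-123422015, plus strand). Its level was 27.1 and 17.1 CPM in hindlimb (122 and 68 counts), against 39.2 and 58.7 CPM in forelimb (154 and 95 counts). The 2 limb types did not overlap, but the log2 fold change of -1.13 ± 0.40 had an edgeR adjusted p of 0.0571 and was not called; without hindlimb replicate 1 it was -1.51 with an adjusted p of 0.0086. The value is uncertain as a measure of Tubb3, because 96.1% of its counts lay in tags that other genes share. The first tag, which also occurs in Tubb6, held 67.4% of the counts, with 62 and 31 in hindlimb, against 131 and 72 in forelimb. The second, shared with Tubb4b, ran the other way, with 35 and 23 counts in hindlimb, against 12 and 4 in forelimb. Neither tag was called, at log2 fold changes of -1.84 (adjusted p = 0.0589) and 1.26 (0.298). The third tag, also shared, had 17 and 5 counts in hindlimb, against 6 and 18 in forelimb, so the limb types overlapped there. Tags found in Tubb3 alone had 7 and 9 counts in hindlimb, against 0 and 1 in forelimb, opposite in order to the gene total.

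Gap43 encodes a growth cone membrane protein, which Schwann cells also make (chr16:42248442-42340651, minus strand). It measured 10.7 and 17.6 CPM in hindlimb (48 and 70 counts), against 6.11 and 9.27 CPM in forelimb (24 and 15 counts). The limb types did not overlap, and hindlimb was the side with the larger values, unlike for Dcx and Stmn2. The log2 fold change of 0.91 ± 0.55 (interval -0.24 to 2.07) did not pass the test (edgeR adjusted p = 0.262). Its first tag, in a coding exon (chr16:42340483-42340499), had 22 and 47 counts in hindlimb, against 10 and 10 in forelimb. Its second, next to the last CATG, had 22 and 22 in hindlimb, against 13 and 4 in forelimb. In CPM the limb types overlapped in the first tag and were separate in the second, and neither tag was called.

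Prph encodes peripherin, an intermediate filament protein of peripheral neurons (chr15:99055174-99058978, plus strand). It had 5 and 8 counts in hindlimb, against 2 and 1 in forelimb, all in 1 tag at the last CATG of the 3′ UTR. These are levels of 1.11 and 2.02 CPM in hindlimb, against 0.509 and 0.618 CPM in forelimb. The ratio of hindlimb to forelimb was 2.84, with an exact 95% counting interval of 0.780 to 15.5, so no difference was detectable at this depth.

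**Figure D2:**
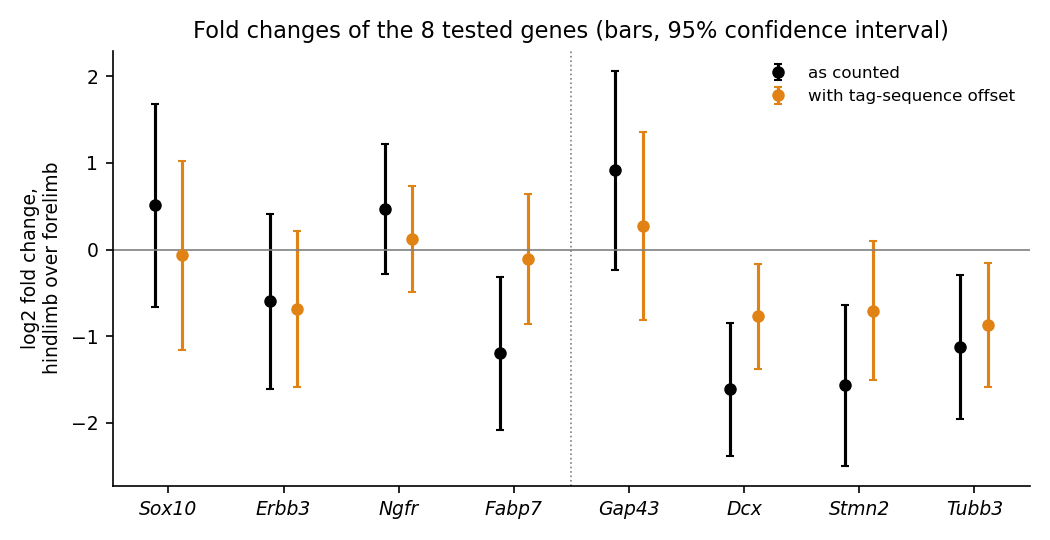
Log2 fold change of hindlimb over forelimb for the 8 members tested, with 95% intervals, without and with the tag-sequence offset. Without the offset the intervals of Dcx, Stmn2, Tubb3 and Fabp7 lie below 0, of which Dcx and Stmn2 passed the adjusted threshold, and the offset moves Dcx to -0.77 and Stmn2 to -0.71.

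Among the Schwann cell genes, Fabp7 encodes a brain-type fatty acid binding protein made by Schwann cell precursors and radial glia (chr10:57784881-57788450, plus strand). It measured 14.7 and 11.8 CPM in hindlimb (66 and 47 counts), against 35.7 and 24.7 CPM in forelimb (140 and 40 counts). Both forelimb libraries lay above both hindlimb libraries, and the log2 fold change of -1.20 ± 0.42 (interval -2.08 to -0.32) missed the threshold, with an edgeR adjusted p of 0.0566. Without hindlimb replicate 1 it was -1.38 with an adjusted p of 0.0395. A single 3′ UTR tag (chr10:57788321-57788337), whose only cytosine is near its end, held 88.7% of the counts. That tag had 55 and 35 counts in hindlimb, against 134 and 36 in forelimb, while the next Fabp7 tag, in a coding exon, had 11 and 6 in hindlimb, against 6 and 4 in forelimb. The offset brought the gene to -0.11 (adjusted p = 0.960).

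Ngfr encodes the p75 neurotrophin receptor, a marker of neural crest cells and early Schwann cells that is also present on sensory axons (chr11:95568818-95587735, minus strand). It had the largest level of the Schwann cell set, 50.5 and 44.6 CPM in hindlimb (227 and 177 counts), against 37.9 and 30.3 CPM in forelimb (149 and 49 counts). The limb types did not overlap, but the log2 fold change of 0.47 ± 0.36 (interval -0.29 to 1.22) did not pass (edgeR adjusted p = 0.394). Beneath this total, the gene's 2 main 3′ UTR tags differed. The tag next to the last CATG (chr11:95568904-95568920), with 9 cytosines among 17 bases, had 106 and 97 counts in hindlimb, against 6 and 8 in forelimb. The tag at the site before it (chr11:95568998-95569014), with 1 cytosine, had 64 and 46 counts in hindlimb, against 99 and 23 in forelimb. In CPM the limb types overlapped in the tag with 1 cytosine and stood far apart in the other.

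Of all Ngfr counts, the tag at the last site made up 46.7% (Wilson 95% interval 40.3% to 53.2%) and 54.8% (47.4% to 62.0%) in hindlimb, against 4.03% (1.86% to 8.51%) and 16.3% (8.51% to 29.0%) in forelimb. The intervals of the 2 limb types do not meet. It was the only member tag of 23 tested that was called, where 6.24% of 37805 tags were (4.59% toward hindlimb, 1.64% toward forelimb), with a log2 fold change of 3.03 ± 0.68 (edgeR adjusted p = 0.0370). With forelimb replicate 1 left out it was 2.28 and no longer called (adjusted p = 0.122), and scaled by library totals alone its adjusted p was 0.0552. The tag at the site before was not called, at -0.64 (adjusted p = 0.454). With the tag-sequence offset the values were 1.74 (adjusted p = 0.592) and 0.078 (0.977), and no member tag was called (3 at an unadjusted p below 0.05), where 0.0317% of all tags were (0.0238% toward hindlimb, 0.00794% toward forelimb); the part of base content in the shift between the tags was not tested further. With only tags at the last site, Ngfr as a gene was higher in hindlimb (2.92, adjusted p = 0.00591), whereas with the most abundant tag alone the value was -0.63.

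**Figure D3:**
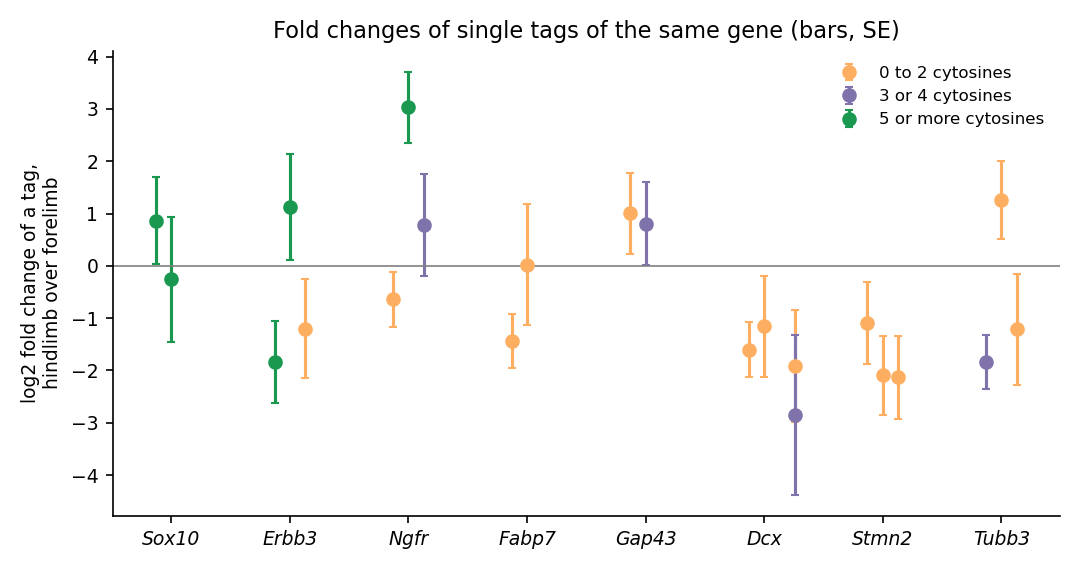
Log2 fold change of hindlimb over forelimb of the members' tags, by gene, with SE bars and 1 point per tag. Colour gives the number of cytosines in the 17 bases of a tag. The 22 tags with counts in both limb types are drawn, without the Dcx tag that had no hindlimb count. Of all 23 tags tested, the 13 with 0 to 2 cytosines have a median of -1.20. The median is -1.84 for the 5 with 3 to 4 and 0.87 for the 5 with 5 or more cytosines.

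Sox10 encodes the transcription factor that Schwann cells and their precursors require (chr15:79154908-79165240, minus strand). It measured 12.7 and 9.58 CPM in hindlimb (57 and 38 counts), against 7.64 and 8.03 CPM in forelimb (30 and 13 counts). Both hindlimb libraries lay above both forelimb libraries by a small margin. The log2 fold change of 0.51 ± 0.56 (interval -0.66 to 1.68) was within its error (edgeR adjusted p = 0.568), and it was -0.064 with the offset. The tag at its last CATG (chr15:79154991-79155007) held 42.8% of the counts, with 30 and 14 in hindlimb, against 10 and 5 in forelimb.

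Erbb3 encodes the neuregulin receptor that holds Schwann cell precursors on axons (chr10:128567523-128589652, minus strand). It measured 12.01 and 11.1 CPM in hindlimb (54 and 44 counts), against 13.5 and 22.2 CPM in forelimb (53 and 36 counts). The limb types did not overlap, with forelimb replicate 2 well above the other libraries, and the log2 fold change of -0.60 ± 0.48 (interval -1.61 to 0.41) did not pass (edgeR adjusted p = 0.415). The fold changes of its tags differed in sign. The tag at the last site had 12 and 7 counts in hindlimb, against 23 and 17 in forelimb, while the second tag of the list, from a site farther upstream in the same 3′ UTR, had 16 and 21 in hindlimb, against 3 and 6 in forelimb. The limb types were separate in CPM in the tag at the last site and overlapped in the other. Neither was called, at -1.84 (adjusted p = 0.156) and 1.13 (0.491).

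None of the 9 genes had overlapping limb types, but 62.8% of all features tested were separate in the same sense, 31.4% in each direction. With 2 libraries a side this separation is common in the table and is given as a description. By number, 4 of the 9 (Sox10, Ngfr, Gap43 and Prph) had their larger values in hindlimb, and the other 5 in forelimb.

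The order of levels within a limb type is given in CPM of the tags assigned to each gene. Every member but Prph sums several tags, some of them from sites upstream of the last CATG. Antisense tags are included, and 96.1% of Tubb3 counts lay in tags that other genes share. The order is therefore one of summed tags and not of transcript numbers. In hindlimb, Ngfr led at a mean of 47.5 CPM over 2 libraries. Tubb3 at 22.1 and Dcx at 21.1 CPM followed and did not differ beyond their spread. Gap43, Fabp7, Erbb3, Sox10 and Stmn2 made a run from 14.2 down to 9.37 CPM in which no neighbours were separate, and Prph came last at 1.56 CPM. In forelimb, Dcx led at 64.7 CPM, ahead of Tubb3 at 49.0 CPM. Ngfr, Fabp7 and Stmn2 lay between 34.1 and 28.1 CPM without separation, then Erbb3 at 17.9 CPM. Sox10 at 7.84 and Gap43 at 7.69 CPM could not be ordered, and Prph was last at 0.564 CPM. Each of these levels also carries the base content of its own tags.

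Summed over the set, the 5 axon genes gave 73.8 and 62.8 CPM in hindlimb, against 135 and 164 CPM in forelimb. Their mean was 68.3 ± 7.80 CPM in hindlimb and 150 ± 20.4 CPM in forelimb (SD, n = 2 each), a log2 ratio of -1.13. The 4 Schwann cell genes gave 89.8 and 77.1 CPM in hindlimb, against 94.7 and 85.3 CPM in forelimb, so the limb types overlapped. Their mean was 83.5 ± 8.96 CPM in hindlimb and 90.0 ± 6.69 CPM in forelimb. The ratio of axon to Schwann cell level was accordingly 0.822 and 0.814 in hindlimb, against 1.43 and 1.93 in forelimb. On CPM corrected by the tag-sequence offset the ratio was 0.922 and 0.968 in hindlimb, against 1.23 and 1.67 in forelimb, so the limb types were separate on both scales but nearer each other on the second. The corrected axon sum was 83.4 and 71.0 CPM in hindlimb, against 112 and 139 CPM in forelimb. No test is given for these sums, because their genes were chosen with results of these libraries known.

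**Figure D4:**
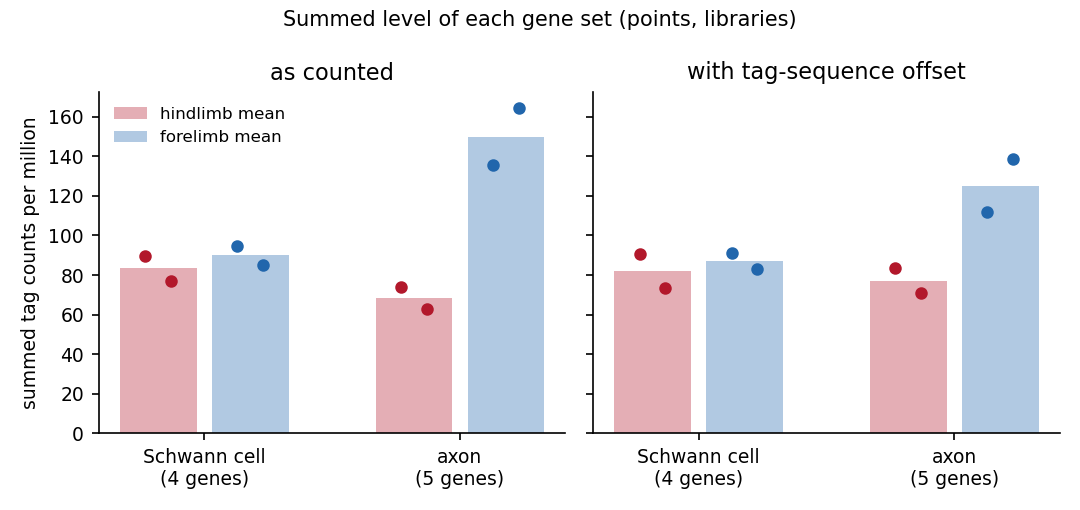
Summed CPM of the 4 Schwann cell genes and of the 5 axon genes in each library, hindlimb left of forelimb, without and with the tag-sequence offset. The axon sums separate by limb type (73.8 and 62.8 in hindlimb, 135 and 164 in forelimb without the offset), while the Schwann cell sums overlap.

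Other Schwann cell genes were read from a wider list. Of 16 listed, 13 were tested and 0 were called by edgeR, where it called 16.7% of all features. Of the 13, 1 had an unadjusted p below 0.05 (4449 of all 13718 features), and DESeq2 called 0. The most abundant were Pmp22, a peripheral myelin protein, at -0.56 (adjusted p = 0.255), and Ednrb, an endothelin receptor of neural crest cells, at 0.30 (0.579). The median was -0.16, and -0.0044 with the offset. Foxd3 and Cdh19, markers of neural crest and Schwann cell precursors, were at or near 0, with 4 and 1 counts of Foxd3 in hindlimb, against 2 and 0 in forelimb, and 0 and 0 counts of Cdh19 in hindlimb, against 0 and 2 in forelimb.

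Other axon and neuron genes went both ways. Of 28 listed, 19 were tested, 3 were higher and 1 was lower in hindlimb (9.58% and 7.08% of all features), and the median was -0.40. Their summed level was 624 and 845 CPM in hindlimb, against 525 and 472 CPM in forelimb, the opposite order to the axon members; with the offset it was 562 and 551 CPM in hindlimb, against 662 and 568 CPM in forelimb. Nsg1, a neuronal endosome protein, measured 51.6 and 90.3 CPM in hindlimb, against 18.1 and 18.5 CPM in forelimb, a log2 fold change of 1.95 ± 0.40 (edgeR adjusted p = 0.00394), and 0.80 with the offset. Uchl1, a neuronal ubiquitin hydrolase, was higher in hindlimb at 1.16 (adjusted p = 0.0279), and at 0.13 with the offset. Thy1, a surface protein of neurons and other cells, was lower in hindlimb at -1.39 (0.0228), and at -0.77 with the offset. The most abundant genes of the list were Basp1 and Map1b. Basp1, a growth cone protein akin to Gap43, was higher in hindlimb at 1.06 (adjusted p = 0.0396) and at -0.33 with the offset. Map1b, a microtubule-associated protein of axons, was not called, at 0.33, and at -0.70 with the offset. With the GC offset none of the 3 genes higher in hindlimb was called. Uchl1 and Basp1 were not called without hindlimb replicate 2 (adjusted p of 0.187 and 0.270), forelimb replicate 1 (0.123 and 0.137) or forelimb replicate 2 (0.226 and 0.297), nor Thy1 without hindlimb replicate 2 (0.0533) or forelimb replicate 2 (0.156).

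Among 18 ligands and receptors of nerve growth, 14 were tested, 1 was higher and 1 lower in hindlimb (9.58% and 7.08% of all features). Nrtn, neurturin, a ligand of the GDNF family, measured 22.9 and 62.5 CPM in hindlimb (103 and 248 counts), against 0.764 and 0.618 CPM in forelimb (3 and 1 counts). The log2 fold change was 5.82 ± 0.70 (edgeR adjusted p = 1.5e-04), but 1.73 with an adjusted p of 0.356 once the offset was applied. Sort1, a sorting receptor that pairs with Ngfr for proneurotrophins, was lower in hindlimb at -1.13 (adjusted p = 0.0479), and at -0.12 with the offset. That call was lost with library totals alone (0.0526), with the GC offset (0.0662) and without hindlimb replicate 2 (0.244), forelimb replicate 1 (0.133) or forelimb replicate 2 (0.212). Erbb2, the partner of Erbb3, was not called, at 0.058, but was lower in hindlimb with the GC offset (-0.98, adjusted p = 0.0332). No count was assigned to Nrg1.

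Of 21 axon guidance genes, 20 were tested, 2 were higher and 3 lower in hindlimb (9.58% and 7.08% of all features). Slit2, a secreted repellent, was higher in hindlimb at 1.59 (adjusted p = 0.0115), and at 0.78 with the offset. Plxna2, a semaphorin receptor, was lower in hindlimb at -1.38 (0.0150), and at -0.31 with the offset. Sema3c, a secreted semaphorin, was lower in hindlimb at -1.09 (0.0267) and reached 0.82 with the offset. None of these 3 was called without forelimb replicate 1 (adjusted p of 0.0833 for Slit2, 0.155 for Plxna2 and 0.133 for Sema3c). Slit2 and Sema3c were not called without forelimb replicate 2 (0.0847 and 0.168), nor Sema3c without hindlimb replicate 2 (0.138). Efna5, an ephrin and one of the most abundant genes of the list, was not called, at 0.25. The other called genes, named after their values were seen, were Sema3f, higher in hindlimb at 1.02 (0.0436) and at 0.27 with the offset, and the attractant Ntn1, lower in hindlimb at -1.20 (0.0404) and at 0.15 with the offset. Over the 4 wider lists together, 6 genes were higher and 5 lower in hindlimb of 66 tested, 16.7% in all, which is the share called among all features. With the offset edgeR called 0 of the 66, and 13 had an unadjusted p below 0.05.

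**Figure D5:**
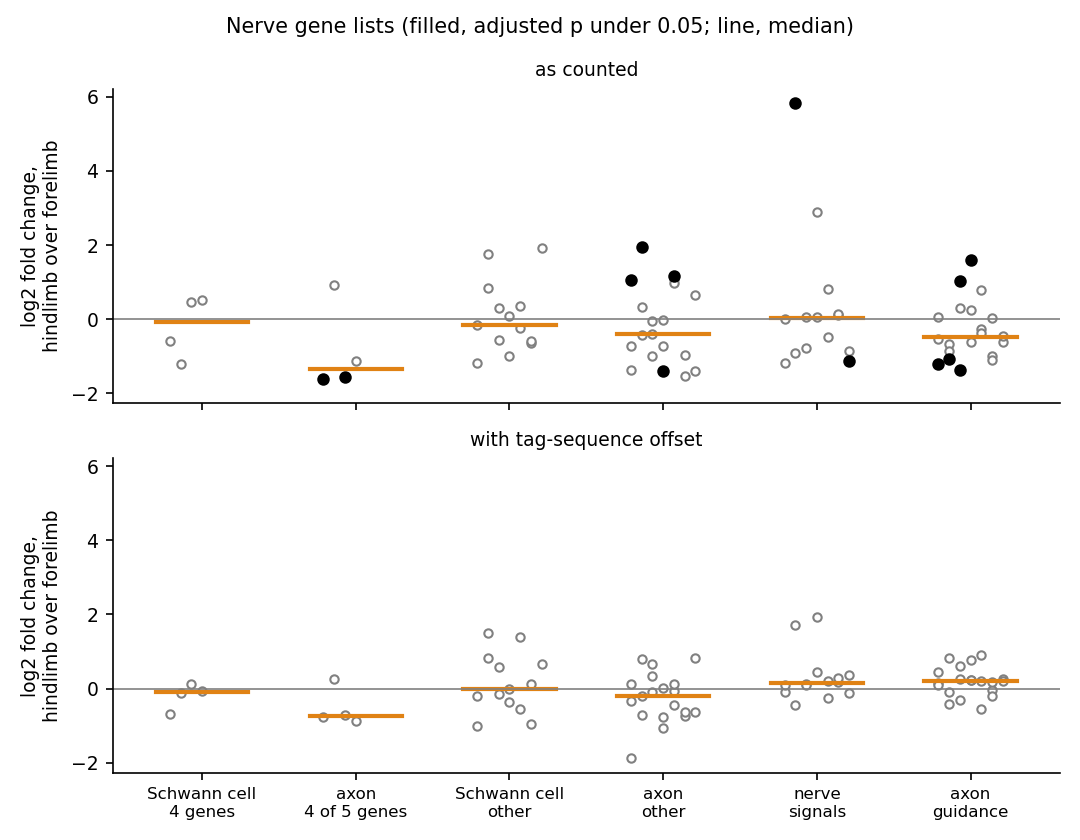
Log2 fold change of hindlimb over forelimb for every tested gene of the members and the wider nerve lists, as counted (above) and with the tag-sequence offset (below); lines are medians and filled points passed the adjusted threshold. As counted, the axon members sit lowest, with a median of -1.35, and the wider lists have medians between -0.48 and 0.037.

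Among those 66 candidates, the genes whose centred log2 CPM over the 4 libraries lay nearest the Schwann cell sum were Epha4 and Cxcl12 (Euclidean distance 0.268 each) and Ntrk3 (0.278). Sema3c (0.200) and Sort1 (0.218) were among the nearest to the axon sum. These distances rest on 4 points and are given as a description.

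Markers of other cells were read beside the nerve genes. Of 12 markers of motor and sensory neuron cell bodies, 7 had no count in any library, among them Chat, Neurog1 and Neurod1. Their summed level was 3.11 and 1.76 CPM in hindlimb, against 3.82 and 3.71 CPM in forelimb, and no library had more than 15 counts of any of them. Slc5a7, the choline transporter of motor neurons, was the only one tested, and was not called (edgeR adjusted p = 0.0874). It had 2 and 0 counts in hindlimb, against 15 and 5 in forelimb. Slc17a6, not tested, ran the other way, with 7 and 6 counts in hindlimb, against 0 and 0 in forelimb. With the tag-sequence offset the sum of the 12 markers was 3.46 and 1.88 CPM in hindlimb, against 2.62 and 2.21 CPM in forelimb. Of 7 markers of melanoblasts, which share Sox10, Erbb3 and Ednrb with Schwann cells, 6 had a count and 4 were tested. By edgeR or DESeq2 0 of them were called, where edgeR called 16.7% of all features. Of the 4 tested, 2 had an unadjusted p below 0.05, as had 4449 of all 13718 features tested. The 7 markers summed to 21.6 and 35.04 CPM in hindlimb, against 24.4 and 17.3 CPM in forelimb, and Mlana was at 0. The most abundant, the receptor gene Kit and the transcription factor gene Mitf, were at -0.49 and -0.86, neither with an unadjusted p below 0.05. The 2 markers below it, named after their values were seen, were Dct and Pmel, which ran toward hindlimb. Dct was at 2.29 (edgeR adjusted p = 0.0502), with 35 and 49 counts in hindlimb, against 10 and 2 in forelimb. Pmel was at 2.998 (0.0668), with 15 and 34 counts in hindlimb, against 3 and 1 in forelimb. The offset gave 0.82 for Dct and 2.64 for Pmel.

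Of the 8 limb tissue markers, all tested, 3 were higher and 1 lower in hindlimb, where 16.7% of all features were called, and DESeq2 also called 4. With the tag-sequence offset edgeR called 0 of them. The muscle actin gene Actc1 was lower in hindlimb, as Dcx was, at 1358 and 1107 CPM in hindlimb, against 4001 and 3146 CPM in forelimb (log2 fold change -1.54, adjusted p = 0.00487), and at -0.65 with the offset. Myog, a muscle regulator, was not called, at -0.32 (adjusted p = 0.534), but was lower in hindlimb with an offset for GC content (-1.45, adjusted p = 0.00463). The cartilage collagen gene Col2a1 (1.46), the keratin gene Krt14 (1.04) and the vessel gene Pecam1 (2.08) were higher in hindlimb. With the tag-sequence offset Col2a1 was at 0.40, Krt14 at -0.18 and Pecam1 at 0.35. The part of these tissues, or of neuron cell bodies, in the values of Dcx and Stmn2 was not tested.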

How the data were processed

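The authors deposited 1 table of raw, unnormalized tag counts with an Ensembl gene or UniGene cluster for each tag where assigned. Bowtie and mm9, a mouse genome build, are named in the submitters' processing notes; which versions and settings were used is not given in the sources used here. Counts were summed per gene, or per cluster where no gene was given. Tags with neither (14.8% to 18.7% of a library) were left out. Symbols, tag matches and positions come from GENCODE M21 on GRCm38, not mm9.

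The limb types were compared with edgeR 4.0.16 (R 4.3.3), using filterByExpr, TMM, the quasi-likelihood test and Benjamini-Hochberg adjustment over all features, without a block; 2 residual degrees of freedom remain. Of 26252 features, 23162 had a count and 13718 were tested. Single tags were tested the same way. The tag-sequence offset is a per-library linear model of base and position, first dinucleotide, GC and purine number, fitted on within-gene differences of 27607 tags in 7669 genes. The steps were tested on simulated data. The counts simulated for the edgeR fit held no base-content bias. Those for the offset drew their bias from the same sequence terms that the offset fits. The simulation therefore cannot show how well either fit does on these data. Alternatives were DESeq2 1.42.0, library totals, no filter, thinning, other choices of tags, a GC offset, a replicate block and leaving out each library. SD is over 2 libraries.

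The members and lists were chosen with earlier results of these data known. Named were all members, up to 3 called genes with the smallest p and the 2 most abundant tested genes of each wider list, and the 3 nearest patterns; exceptions are marked, and 1 of these patterns is not reported here. Tags were amplified by PCR and carry no molecular identifiers, so the Wilson and exact intervals and the floors cover counting error only. The edgeR intervals of fold changes also carry the spread between libraries. A count of 0 allows up to 3 counts, 0.667 and 0.756 CPM in hindlimb, against 0.764 and 1.85 CPM in forelimb.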

Additional observations from a re-analysis of the deposited data

Results flagged for a closer look

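Some tags that lie on the sense strand of a member's reference transcript, and of no other gene's, carried no gene or cluster in the deposited table and so are in none of the values above. For Dcx there were 15 such tags with 112 counts, 25 and 13 in the hindlimb libraries, against 45 and 29 in the forelimb libraries. For Erbb3 there were 6 such tags with 22 counts, 10 and 0 in hindlimb, against 7 and 5 in forelimb. For Ngfr there was 1 such tag with 5 counts, 4 and 0 in hindlimb, against 0 and 1 in forelimb. Each total is above the 3 counts that a count of 0 allows.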

How the results depend on the processing

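Dcx kept its call in every setting run except the 2 with the tag-sequence offset; leaving out single libraries gave -1.86 to -1.40. Counts of called features, hindlimb then forelimb, were 1314 and 971 over all genes, 437 and 449 with the GC offset, 40 and 11 with the tag-sequence offset, 53 and 12 with it and the replicate block, 583 to 1899 and 367 to 2001 without single libraries, and 1486 in forelimb with a crossed replicate block, added after the data were seen because deviations of equal numbers correlated at -0.105. The plain replicate block gave 1179 and 969. Schwann cell members called numbered 1 and 1 with the last site only, 1 in forelimb with the crossed block, and 0 to 1 without single libraries (1 in forelimb without hindlimb replicate 1). Axon members called in forelimb numbered 1 with the last site, 0 with the tag-sequence offset with or without the block, and 1 to 3 without single libraries. The wider lists had 10 and 8 with the most abundant tag, 2 and 3 with the GC offset, 0 and 0 with the tag-sequence offset with or without the block, 9 in forelimb with the crossed block, and 2 to 10 and 1 to 12 without single libraries. The called Ngfr tag was lost (0 called) with library totals, the replicate block or the tag-sequence offset; without single libraries 0 to 1 and 0 to 3 member tags were called (3 without hindlimb replicate 1). The log2 ratio of the Schwann cell sums, -0.11, was -0.95 with the most abundant tag, -0.35 with the GC offset and -0.23 to 0.011 without single libraries, 0.011 without hindlimb replicate 2. That of the axon sums, -1.13, was -1.32 with the most abundant tag, -0.70 with the tag-sequence offset and -1.27 to -0.995 without single libraries. Direction changed with the tag-sequence offset for Sox10 (-0.064; -0.065 with block), Basp1 (-0.33; -0.32), Map1b (-0.70; -0.70), Sema3c (0.82; 0.81), Kit (0.44; 0.28), Krt14 (-0.18), Ntn1 (0.15), the second Erbb3 tag (-0.038), the first Ngfr tag (0.078) and the second Tubb3 tag (-0.10); with the GC offset for Ngfr (-0.22), Uchl1 (-0.027), Map1b (-0.69), Erbb2 (-0.98, adjusted p = 0.0332), Sema3c (0.012), Sema3f (-0.11) and Kit (0.062); with the most abundant tag for Ngfr (-0.63); with the last site for Erbb2 (-0.10) and Efna5 (-1.16); with thinning for Kit (0.14); and without single libraries for Kit (-1.31 to 0.039), Erbb2 (-0.013 to 0.13), the second Sox10 tag (-0.94 to 0.56) and the third Tubb3 tag (-2.26 to 0.66). Stmn2 was also not called with the most abundant tag (-1.10, edgeR adjusted p = 0.345) or the last site (-2.19, 0.0637). Tubb3 was called in 7 of the 15 settings run for it. Among them were the most abundant tag (-1.86, edgeR adjusted p = 0.0235), the GC offset (-1.49, 0.0207) and no low-count filter (-1.13, 0.0480). Fabp7 was called with the last site (-1.54, edgeR adjusted p = 0.0338). Taking genes from M21, added after the data were seen, left -1.16 for the axon sum. The causes were not tested. Low counts, from 1 to 8 a library for Prph, and 2 libraries a limb type limit what could be detected.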
